A study of Homo sapiens with 74 samples.

Results

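The genes examined here were the 10 human small nuclear RNA (snRNA) genes RNU2-2, RNU4-1, RNU4-2, RNU5A-1, RNU5B-1, RNU6-1, RNU11, RNU12, RNU4ATAC and RNU6ATAC, of 62700 genes in the GENCODE 44 annotation. They were chosen by name as genes of the U2, U4, U5, U6, U11, U12, U4atac and U6atac RNAs, and RNU2-2 is named RNU2-2P in that annotation. In HEK293T, a human embryonic kidney cell line, 36 zinc-finger proteins (ZFPs) were expressed 1 at a time, each from a transfected plasmid that carried its open reading frame with a C-terminal V5 tag behind the EF1-alpha promoter. Their sites on DNA were mapped 48 h later by Cut&Run, in which an antibody against the V5 tag directs micrococcal nuclease to cut around the tagged protein. Each ZFP had 2 biological replicates, each a separate well, which gave 72 peak lists with 92122 peaks. Among these ZFPs, CPSF4, MBNL1, SNRPC, TRIM55, ZC3H3 and ZMAT5 have no Cut&Run value in the authors' summary. The 36 used here are thus not the same set as the 36 ZFPs that the paper counts as passing its quality control for Cut&Run. Un-transfected HEK293T cells carried through the same steps with the V5 antibody (mock IP) were the control against which the authors called each list. The tagged protein was present in addition to the endogenous one, and direct and indirect contacts with DNA are not separated by the assay. A gene counted as called in a list when a peak overlapped it or lay within 500 bp of it, and 62 of the 92122 peaks met that rule.

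snRNAs are the RNA cores of the spliceosome, the machine that removes introns from pre-mRNA. U2, U4, U5 and U6 serve the major spliceosome, which removes most introns, while U11, U12, U4atac and U6atac serve with U5 in the minor spliceosome, which removes a rare class of introns. Most snRNA genes are short, lack introns and are transcribed by RNA polymerase II from a compact promoter with a proximal and a distal sequence element. The U6 and U6atac genes use RNA polymerase III, through a promoter of similar design that lies wholly upstream of the gene.

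The length of a list varied widely, from 15 to 8702 peaks with a median of 631, and read totals were not used here. The lack of a peak in a short list therefore says little. As a check of the labels, 32 of the 36 ZFPs had peaks on exons of their own gene in both replicates. MBNL1 had them in replicate 2 alone, TRIM55 in replicate 1 alone and ZMAT5 in neither, so its libraries are called those labelled ZMAT5. The libraries labelled U2AF1 had none on U2AF1 exons but 7 peaks on exons of USP39 in each replicate. The highest folds of those peaks were 2716 in replicate 1 and 3226 in replicate 2, beside a median of 4.71 over all peaks. The list of MBNL1 replicate 1 stood apart, because 32.6% of its 141 peaks (95% exact binomial interval 25.0 to 41.0%, counting error only; median over all lists 0.961%) had the summit inside a structural RNA gene, that is a gene of an rRNA, snRNA, snoRNA, scaRNA, ribozyme or miscellaneous small RNA.

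The 10 genes lie on 7 chromosomes of hg38. Sequences of the genes with sharply placed peaks are given first, since the peak borders described later fall on their ends. Each is the strand that is transcribed, 5′ to 3′, read from hg38, with the gene in capitals and 20 bases of flank in lower case.
RNU2-2 (chr11:62841599-62841829, minus strand): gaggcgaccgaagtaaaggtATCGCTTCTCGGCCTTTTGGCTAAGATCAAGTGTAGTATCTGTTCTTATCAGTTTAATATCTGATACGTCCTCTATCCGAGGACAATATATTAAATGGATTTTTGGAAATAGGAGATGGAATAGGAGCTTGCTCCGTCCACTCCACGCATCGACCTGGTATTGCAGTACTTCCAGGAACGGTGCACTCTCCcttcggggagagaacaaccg
RNU4-1 (chr12:120293077-120293257, minus strand): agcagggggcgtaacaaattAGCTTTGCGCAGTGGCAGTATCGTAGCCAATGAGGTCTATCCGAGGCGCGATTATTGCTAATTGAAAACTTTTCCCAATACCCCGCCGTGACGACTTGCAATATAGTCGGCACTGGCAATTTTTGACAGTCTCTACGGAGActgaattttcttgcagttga
RNU4-2 (chr12:120291743-120291923, minus strand): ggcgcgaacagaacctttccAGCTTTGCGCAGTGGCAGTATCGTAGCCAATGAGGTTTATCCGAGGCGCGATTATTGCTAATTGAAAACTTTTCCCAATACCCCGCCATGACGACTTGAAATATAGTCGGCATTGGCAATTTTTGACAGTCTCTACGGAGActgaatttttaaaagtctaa
RNU11 (chr1:28648580-28648753, plus strand): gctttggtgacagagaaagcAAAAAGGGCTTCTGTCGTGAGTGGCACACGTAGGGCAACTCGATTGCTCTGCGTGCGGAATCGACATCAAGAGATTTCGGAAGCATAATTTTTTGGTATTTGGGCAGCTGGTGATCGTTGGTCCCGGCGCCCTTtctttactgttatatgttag
RNU12 (chr22:42615224-42615413, plus strand): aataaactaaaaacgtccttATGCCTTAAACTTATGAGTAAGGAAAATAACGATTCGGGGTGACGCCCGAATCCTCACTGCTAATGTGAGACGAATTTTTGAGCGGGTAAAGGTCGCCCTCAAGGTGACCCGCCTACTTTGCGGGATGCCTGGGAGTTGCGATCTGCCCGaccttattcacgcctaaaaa
RNU4-1 and RNU4-2 are 97.2% identical over 141 bases and differ at 4 of them, and RNU5A-1 and RNU5B-1 are 94.0% identical over 116 bases. A read from a stretch shared by such copies can be placed at either. Copies of stretches of 50 bases were sought on the autosomes, X and Y of hg38 only, here and below. Of the 142 such stretches that RNU2-2 contains, 87 also occurred elsewhere, the most repeated at 16 places. All 58 such stretches of RNU6-1 occurred several times, 34 of 77 in RNU6ATAC, 12 of 92 in RNU4-1, 1 of 92 in RNU4-2 and 9 of 67 in each of RNU5A-1 and RNU5B-1. RNU11, RNU12 and RNU4ATAC held none that occurred again, and neither did the 300 bp before any of the 10 genes.

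Promoters of these genes were compared over the 300 bp before the gene start. The octamer ATGCAAAT, a known part of the distal element, was found on either strand in 6 of 10 (RNU4-2, RNU5A-1, RNU5B-1, RNU6-1, RNU11 and RNU4ATAC), at positions from -229 to -196, where 0 is the first base of the gene. Of 62663 gene starts of the annotation, 2.41% had it in the same window. The 5 letters TNACC, picked after the promoters had been read, occurred on the gene strand between -75 and -40 in 8 of 10 genes, all but RNU5A-1 and RNU12, against 9.42% of gene starts. In RNU5A-1 and RNU12 the match on that strand nearest to this window lay at -79 to -75 and at -85 to -81. TATA on the gene strand between -35 and -20 was found in RNU6-1 alone, against 4.72% of gene starts. Bases -75 to -16 of a pair of polymerase II genes (RNU2-2 and RNU4-2) and of the polymerase III genes show the layout, with TNACC and the TATA stretch in capitals.
RNU2-2 (chr11:62841825-62841884, minus strand): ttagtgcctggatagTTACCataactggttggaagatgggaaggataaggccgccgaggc
RNU4-2 (chr12:120291919-120291978, minus strand): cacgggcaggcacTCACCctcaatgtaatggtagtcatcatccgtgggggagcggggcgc
RNU6-1 (chr15:67840061-67840120, minus strand): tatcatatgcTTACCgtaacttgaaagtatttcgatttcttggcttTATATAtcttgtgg
RNU6ATAC (chr9:134164580-134164639, minus strand): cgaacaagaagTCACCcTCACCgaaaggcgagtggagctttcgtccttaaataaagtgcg
A match describes these letters and does not show that a factor sits there.

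The 10 genes were called more often than genes in general. Of their 720 gene-list pairs 61 were called, or 8.47%, beside 1.89% for all genes, 2.3% for start sites of protein-coding genes and 0.386% for the other snRNA genes of the annotation, many of which are pseudogenes. A set of 15 other short non-coding RNA genes with promoters of this kind, described at the end, had a larger share than the 10 genes, with 205 of 1080 pairs called. The excess over all genes was 6.58 ± 1.04 percentage points (SD between replicate numbers, n = 2). Replicate 1 lists called 35 of 360 pairs and replicate 2 lists 26 of 360. Among pairs of a gene and a ZFP, 52 of 360 were called in either replicate and 9 in both, or 2.5%, beside 0.561% in both for all genes. The 9 were 17.3% of the 52, against 17.4% for all genes, so a call was repeated about as often as at other genes. At least 1 list called 9 of the 10 genes, beside 31.6% of all genes and 2.59% of the other snRNA genes. All lists share mock IP controls by batch, so these counts describe the lists and carry no test. Members with a protein-coding start site in the window (RNU2-2, RNU11, RNU12 and RNU4ATAC) held 39 of the 61 calls and all 9 repeated ones, and without them 22 of 432 pairs remained.

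**Figure D1:**
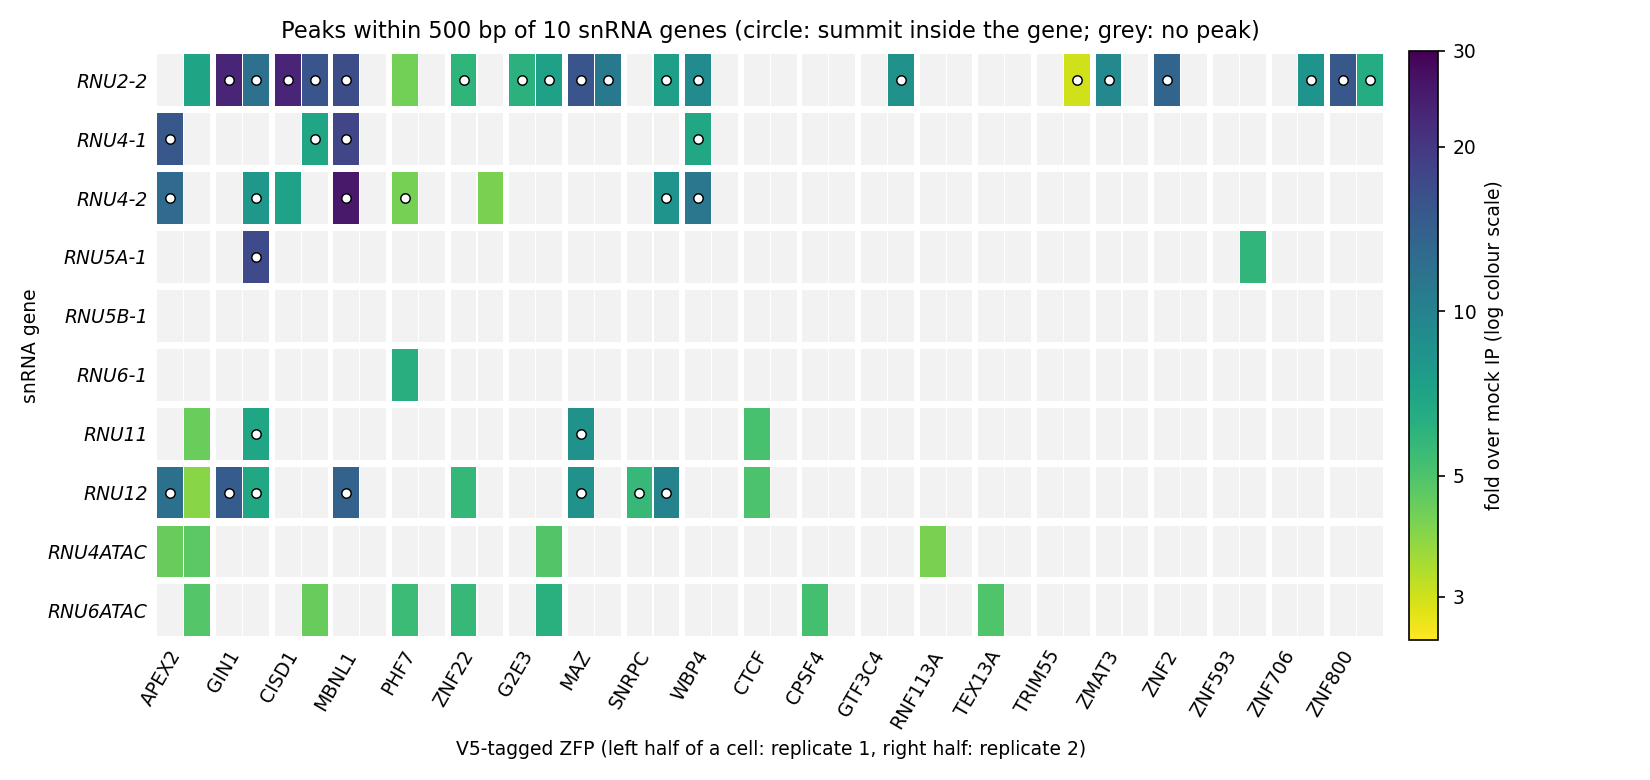
Peaks within 500 bp of the 10 snRNA genes (rows) for the 21 ZFPs with at least 1 such peak (columns, ordered by the number of genes called); the left box of each cell is replicate 1 and the right box replicate 2. Colour gives the fold over mock IP on a log scale, for the higher peak where a list had 2, and a circle marks a summit inside the gene. RNU2-2 was called in 21 lists and RNU5B-1 in none, and the circles are confined to RNU2-2, RNU4-1, RNU4-2, RNU5A-1, RNU11 and RNU12.

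Peaks fell into a set on the gene and a set beside it. In 39 of the 62 (62.9%) the summit lay inside the snRNA gene, and in 23 it lay outside, 18 upstream and 5 downstream. Inside peaks had folds of 2.99 to 25.6 with a median of 9.34, and outside peaks 3.89 to 7.19 with a median of 4.98, near the median of 4.71 over all 92122 peaks. Ranked by fold within its own list, the median inside peak stood at the top 7.67% and the median outside peak at the top 52.5%. The inside peak with the lowest fold, of TRIM55 replicate 2, stood at the top 3.36% of its list, whose median fold was 1.998. The one with the highest fold, of MBNL1 replicate 1, stood at the top 39.7% of a list with a median fold of 15.9. Of the inside peaks 26 were among the top 10% of their list, and of the outside peaks 2. Inside peaks were narrower, with a median width of 159 bp against 278 bp. The sorting by summit was made after the values were seen, so these contrasts are given with no test.

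**Figure D2:**
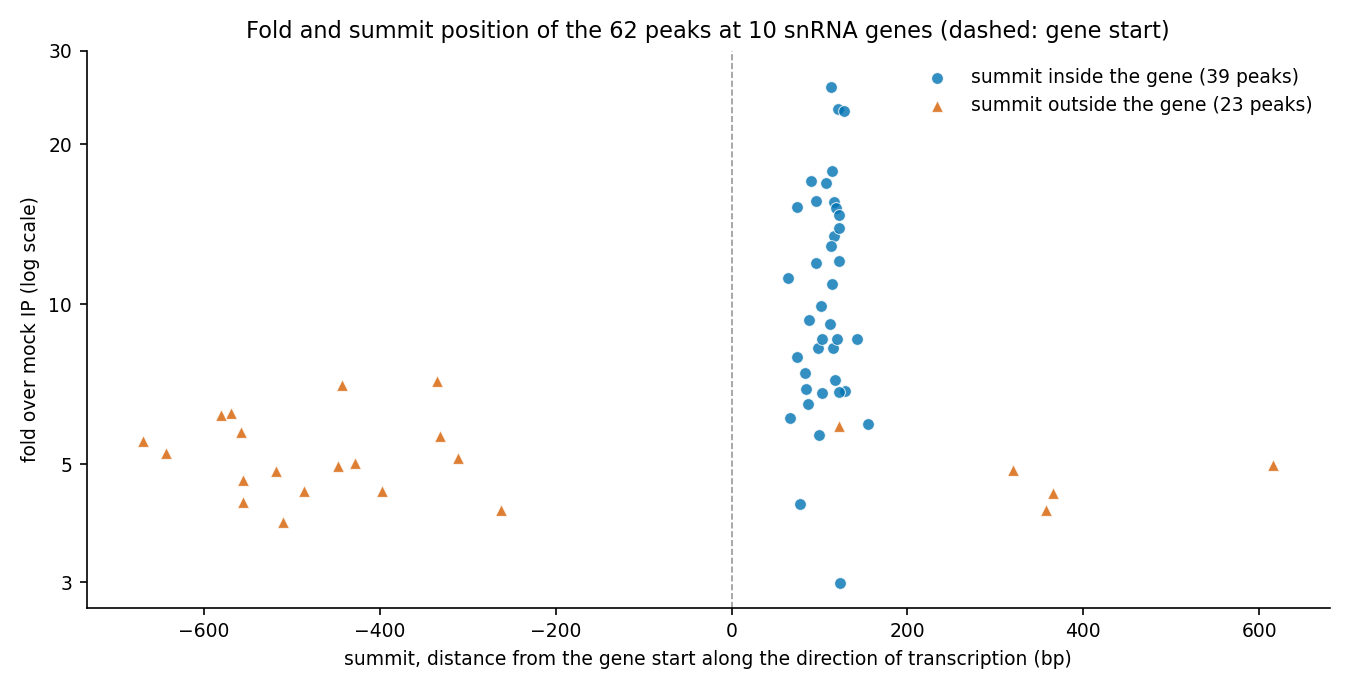
Fold over mock IP (y axis, log scale) against the place of the summit (x axis, bp from the gene start, negative upstream) for the 62 peaks. Inside summits (circles, 39 peaks) form a column at 64 to 155 bp with folds up to 25.6, and no outside summit (triangles, 23 peaks) exceeded 7.19.

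The borders of the inside peaks followed the borders of the genes. The 5′ edge lay within 15 bp of the gene start in 28 of 39, the 3′ edge within 15 bp of the gene end in 35, and both in 26. Other small structural RNA genes of 100 to 350 bp showed a like arrangement, in that 837 of their 1339 peaks had the summit inside the gene, with the 5′ edge within 15 bp in 51.9% and the 3′ edge in 64.3% of the 837. Peaks carry no strand, and the reads behind these borders were not examined here.

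**Figure D3:**
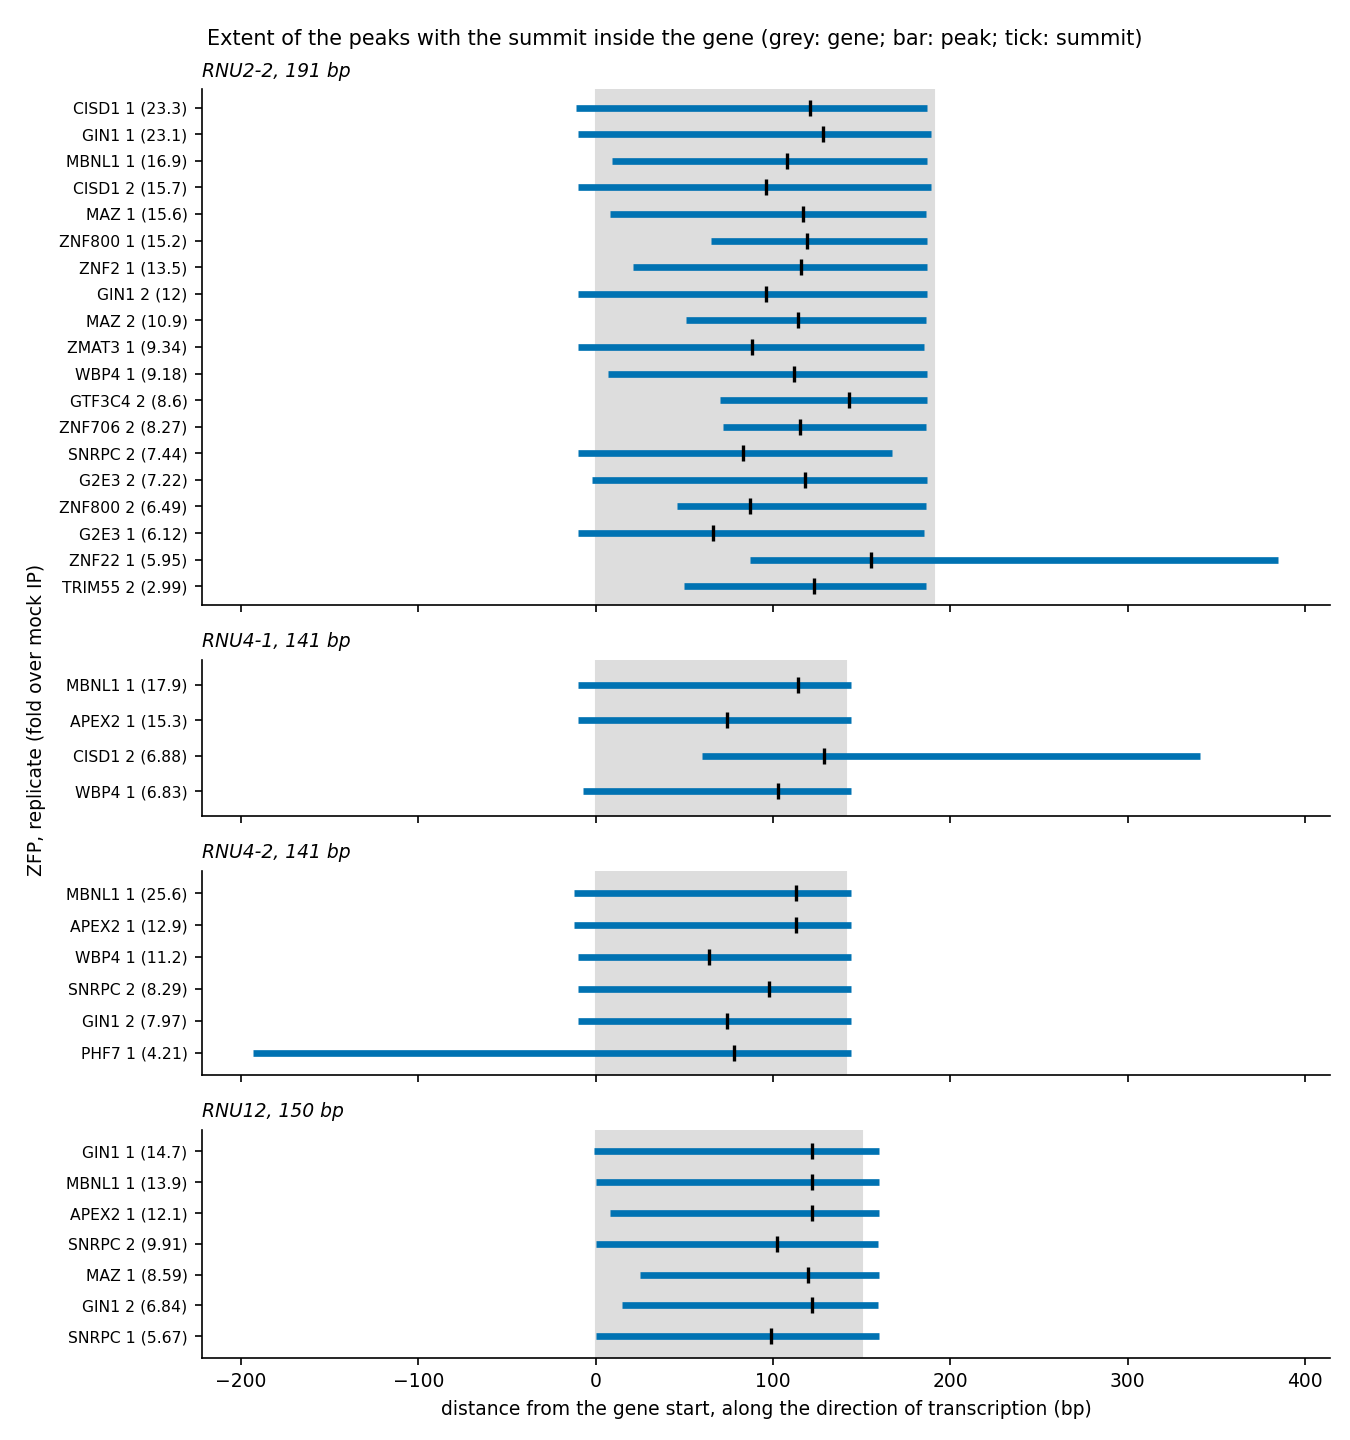
Extent of each peak with the summit inside RNU2-2, RNU4-1, RNU4-2 or RNU12, ordered by fold; the x axis is the distance in bp from the gene start along the direction of transcription, the grey band is the gene, the bar the peak and the tick its summit. The right-hand ends line up close to the gene end in 17 of 19 peaks at RNU2-2, in 9 of 10 at the 2 U4 genes and in 7 of 7 at RNU12.

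RNU2-2, a gene of the U2 snRNA that recognises the branch point of the intron, was called in 21 lists of 16 ZFPs, the most of the 10 genes. Its folds ranged from 2.99 to 23.3 with a median of 9.18. It was called in both replicates of 5 ZFPs. CISD1, an outer mitochondrial membrane protein, had folds of 23.3 and 15.7 in replicates 1 and 2. GIN1, a protein related to transposon integrases, had 23.1 and 12.0, and MAZ, a transcription factor that binds GC-rich promoters, had 15.6 and 10.9. For ZNF800 the folds were 15.2 and 6.49, and for the ubiquitin ligase G2E3 they were 6.12 and 7.22. All 10 of these summits lay inside the gene, so the repeated calls at RNU2-2 were all on the transcribed part. Of the 11 ZFPs called in 1 list, 9 had the summit inside, with folds of 2.99 to 16.9 and a median of 8.60. They were GTF3C4, MBNL1, SNRPC, TRIM55, WBP4, ZMAT3, ZNF2, ZNF22 and ZNF706. The peaks of MBNL1 and TRIM55 were in replicates 1 and 2, the libraries with no peak on exons of their own gene. The remaining peaks, of APEX2 replicate 2 with a fold of 7.05 and PHF7 replicate 1 with 4.25, had summits at -443 and -555. In 17 of the 19 inside peaks the 3′ edge stopped 2 to 6 bp short of the annotated gene end. The 5′ edge was less fixed, lying 10 or 11 bp before the gene start in 7 and 46 to 87 bp past it in 7. ZNF22 replicate 1 differed, with a peak that ran 194 bp beyond the gene. WDR74, whose product takes part in ribosome assembly, spans RNU2-2 on the same strand and has transcripts that start at its first base, so a call here can belong to either gene.

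The non-member genes over 10 kb away whose lists were most like those of RNU2-2 were picked by the Jaccard index, the number of lists that called both over the number that called either, among 72 lists. SNORD3A, the U3 snoRNA gene, had an index of 0.654 with 17 shared lists. RNU1-2, a U1 snRNA gene, had 0.645 with 20 shared lists. RNU1-4 had 0.581 with 18, tied with the lncRNA genes ENSG00000282740 and ENSG00000290850. Lower in this order stood snRNA genes named U2 on chromosome 17, called in 19 and 14 lists. They shared 14 and 12 lists with RNU2-2, with indices of 0.5385 and 0.5217. Lists share mock IP controls and differ in length, and the part of either in this likeness was not tested.

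U4 pairs with U6 and holds it inactive until the spliceosome is activated. RNU4-1 was called in 4 lists of 4 ZFPs, all with the summit inside. The folds were 17.9 in MBNL1 replicate 1, 15.3 in APEX2 replicate 1, 6.88 in CISD1 replicate 2 and 6.83 in WBP4 replicate 1. No ZFP called it in both replicates. RNU4-2 was called in 8 lists of 8 ZFPs, 6 with the summit inside. Inside folds were 25.6 in MBNL1 replicate 1, 12.9 in APEX2 replicate 1, 11.2 in WBP4 replicate 1, 8.29 in SNRPC replicate 2, 7.97 in GIN1 replicate 2 and 4.21 in PHF7 replicate 1. CISD1 replicate 1 had a fold of 7.19 at -335 and ZNF22 replicate 2 one of 4.11 at -262. MBNL1, APEX2 and WBP4 thus called both U4 genes on the transcribed part, each in replicate 1 and in neither gene in replicate 2. Folds of MBNL1 replicate 1 were high throughout, with a median of 15.9 over its list. By fold its RNU4-2 and RNU4-1 peaks stood at the top 39.7% and 48.2% of that list, and its RNU2-2 and RNU12 peaks at 49.65% and 53.9%. In 9 of the 10 inside peaks of the U4 genes the 3′ edge lay exactly 3 bp past the gene end, and in 8 the 5′ edge lay 7 to 12 bp before the start. No protein-coding start site lies within 500 bp of either gene.

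U5 contacts both exons during splicing and serves both spliceosomes. RNU5A-1 (chr15:65296051-65296166, plus strand) was called in GIN1 replicate 2, with a fold of 17.1, an edge 1 bp before the gene start and a 3′ edge 146 bp past its end, and in ZNF593 replicate 2, with a fold of 5.91 and the summit just past the gene at 122. The gene sits on the strand opposite to PARP16, within it. RNU5B-1 (chr15:65304677-65304792, plus strand) was called in none of the 72 lists, although it is nearly the same RNA.

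RNU6-1 (chr15:67839939-67840045, minus strand), a gene of the catalytic U6 RNA, lies opposite to and within the lncRNA gene ENSG00000259410. It had 1 peak, of PHF7 replicate 1, with a fold of 6.25 at -569. RNU6ATAC (chr9:134164439-134164564, minus strand), whose RNA takes the place of U6 in the minor spliceosome, was called in 7 lists of 7 ZFPs, and each summit lay upstream. The folds were 6.19 in G2E3 replicate 2, 5.66 in ZNF22 replicate 1, 5.54 in PHF7 replicate 1 and 5.26 in CPSF4 replicate 1. They were 4.96 in TEX13A replicate 1, 4.87 in APEX2 replicate 2 and 4.45 in CISD1 replicate 2. Summits ranged from -669 to -332, no ZFP repeated its call, and the nearest protein-coding start site, of WDR5, was about 28.8 kb away. The count of 7 lists depended on the rule, being 12 within 1000 bp, 3 by the summit within 500 bp, 4 with −log10 q of at least 3 and 0 with at least 5. The 7 peaks spanned 631 bp together and shared 11 bases. The shortest, of CISD1 replicate 2, is shown because it marks this site, in the direction of RNU6ATAC transcription with the shared bases in capitals.
RNU6ATAC upstream peak (chr9:134164895-134165069, minus strand): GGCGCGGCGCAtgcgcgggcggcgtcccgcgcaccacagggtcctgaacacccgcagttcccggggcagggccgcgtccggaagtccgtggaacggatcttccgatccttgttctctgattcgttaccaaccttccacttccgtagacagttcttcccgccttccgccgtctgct
The genes transcribed by RNA polymerase III thus had 8 peaks, 0 of them with the summit inside, while those transcribed by RNA polymerase II had 54 peaks, 39 with the summit inside. RNU6-1 has no stretch of 50 bases that occurs once on the searched chromosomes, whereas 43 of the 77 stretches of RNU6ATAC occur once. All 251 stretches in the 300 bp before RNU6-1 occur once, and the libraries were read from both ends. RNU2-2, with 87 of 142 stretches repeated, had 19 peaks with the summit inside. The part of repeats in these counts was not tested.

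RNU11 and RNU12 make the RNAs that recognise the splice site and the branch point of minor introns. An annotated lncRNA gene begins at the first base of each, ENSG00000270103 at RNU11 and ENSG00000270022 at RNU12. RNU11 had 5 peaks in 4 lists. MAZ replicate 1 had a fold of 8.59 and GIN1 replicate 2 one of 6.93, both with the summit inside and both edges within 10 bp of the ends of the gene. CTCF replicate 1 had folds of 5.15 at -311 and 4.98 at 616, and APEX2 replicate 2 had 4.43 at 366. The CTCF peak at -311 covered the start of TAF12, a subunit of the TFIID factor, which runs the other way from its start at -309. No ZFP called RNU11 in both replicates.

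RNU12 was called in 10 lists of 7 ZFPs, and 3 ZFPs called it in both replicates. GIN1 had folds of 14.7 and 6.84 in replicates 1 and 2, with summits at 122 in both. SNRPC, a protein of the U1 snRNP, had 5.68 and 9.91 with summits at 99 and 102. APEX2, a DNA repair nuclease, had 12.1 in replicate 1 with the summit at 122, but its peak in replicate 2, with a fold of 3.89, lay at -510, so those calls were not of the same site. MBNL1 replicate 1 had 13.9 at 122 and MAZ replicate 1 had 8.59 at 120. ZNF22 replicate 1 with 5.75 at -558 and CTCF replicate 1 with 5.04 at -428 lay outside. The 3 outside peaks lay within 17 bp of a start of POLDIP3, which is transcribed away from RNU12, or covered it. In 7 of 7 inside peaks the 3′ edge lay 9 or 10 bp past the gene end, and 4 summits fell on the same base, position 122. All 101 stretches of 50 bases in RNU12 occur once on the autosomes, X and Y of hg38. Shorter or inexact copies and other contigs were not searched.

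RNU4ATAC (chr2:121530881-121531007, plus strand), whose RNA pairs with U6atac, had 4 peaks, none overlapping the gene. APEX2 had folds of 4.45 and 4.68 in replicates 1 and 2 at -486 and -556, near or over the start of CLASP1, which runs the other way from its start at -136 and spans RNU4ATAC. The lncRNA gene CLASP1-AS1 starts at -459 on the strand of RNU4ATAC and also spans it. G2E3 replicate 2 had 4.89 at 320 and RNF113A replicate 1 had 4.11 at 358. None of these 4 calls reached a −log10 q of 3. Together the 4 minor snRNA genes had 26 peaks, 9 with the summit inside, and the other 6 genes had 36 peaks, 30 with the summit inside. Of the 23 outside peaks at all 10 genes, 12 had a protein-coding start site in the peak or within 1000 bp of it. These were the outside peaks of RNU2-2, RNU11, RNU12 and RNU4ATAC, the members with a protein-coding start site in the window. The count thus largely follows from where the genes lie, and the share over all peaks was not computed.

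ZFPs differed in how many of the genes they called. APEX2 called 7, GIN1 5, and CISD1, MBNL1, PHF7 and ZNF22 called 4 each. The same ZFPs called 13.7%, 7.57%, 14.9%, 0.47%, 11.8% and 12.7% of all genes, in that order. MAZ, G2E3, SNRPC and WBP4 called 3 each and CTCF 2. These called 1.21%, 11.3%, 2.75%, 0.933% and 7.18% of all genes, in that order. Single genes were called by CPSF4, GTF3C4, RNF113A, TEX13A, TRIM55, ZMAT3, ZNF2, ZNF593, ZNF706 and ZNF800. Among them the share of all genes ran from 0.241% for GTF3C4 to 4.28% for CPSF4. None were called by BRCA1, CNBP, CNOT4, CPSF4L, LIN28B, NANOS2, RBM5, RNF14, SALL4, ZC3H3, ZFP36L1, ZNF317, ZNF574 or the libraries labelled ZMAT5 and U2AF1. GIN1 had the summit inside in all 5 of its genes, and APEX2 in 3 of 7. Long lists called more: the 24 longest, of 1028 to 8702 peaks, held 43 of the 61 pairs, the middle 24 held 10 and the 24 shortest, of 15 to 437 peaks, held 8. The share of all genes called was 13.6% in the longest list (CISD1 replicate 1) and 0.0287% in the shortest (ZC3H3 replicate 2). How the calls of all genes divide among these groups of lists was not computed, so the split says nothing particular to the 10 genes. All pairs of the middle and shortest lists had the summit inside, beside 21 of the 43 in the longest. MBNL1 replicate 1 called 4 genes, all on the transcribed part, from a list of 141 peaks, whereas MBNL1 replicate 2, of 289 peaks, called none. All calls of MBNL1 and TRIM55 thus came from the replicate that had no peak on exons of the ZFP's own gene. Without MBNL1 replicate 1, 57 of 710 pairs were called and 35 of 58 peaks had the summit inside.

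**Figure D4:**
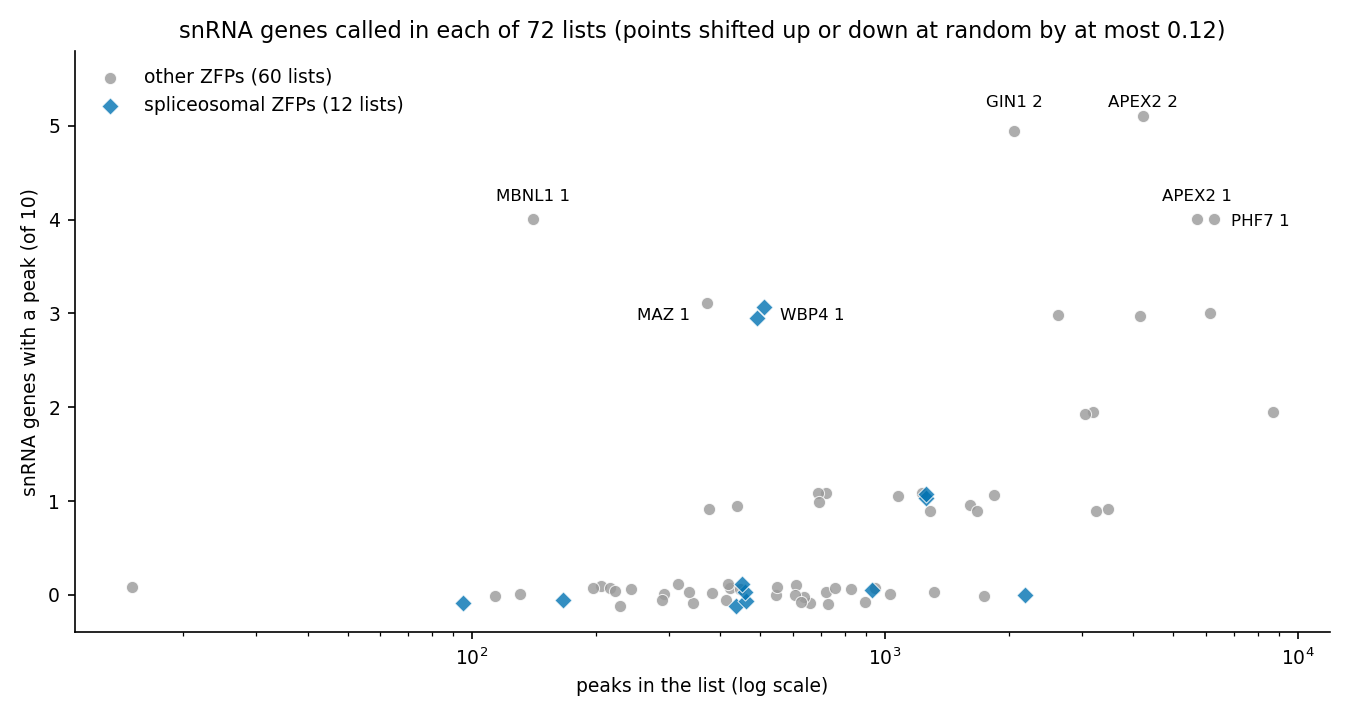
Number of the 10 snRNA genes called in a list (y axis, points shifted at random by at most 0.12) against the number of peaks in it (x axis, log scale) for the 72 lists, with diamonds for the spliceosomal ZFPs. Lists of 1028 or more peaks hold most calls, and MBNL1, MAZ and WBP4 replicate 1 stand out among the shorter lists with 4, 3 and 3 genes, as does SNRPC replicate 2 with 3.

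Lists with a summit inside one of the 10 genes also held other structural RNA genes. In those 22 lists, 0.196% to 29.8% of peaks had the summit inside a structural RNA gene, leaving out the peaks of the 10 genes themselves, with a median of 1.47%. In the other 50 lists the range was 0% to 3.98% with a median of 0.546%. The ranges overlap, and the lists also differ in length, with medians of 1244 and 503 peaks. The part of this share in the calls was not tested.

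Whether proteins of the spliceosome had more peaks at the genes of its RNAs was asked with 6 ZFPs, namely SNRPC, U2AF1, RBM5, WBP4, ZMAT5 and RNF113A. The libraries labelled U2AF1 and ZMAT5 had no peak on exons of those genes, and those labelled U2AF1 had peaks on USP39 exons instead. The labelled protein was thus not shown in these libraries. They were counted here by their labels. They called 1.17 ± 1.47 of the 10 genes (SD, n = 6) and the other ZFPs 1.5 ± 1.87 (SD, n = 30), a difference of -0.33 genes (exact permutation test, two-sided, with 1947792 splits of the ZFPs, p = 0.722, adjusted p = 0.825 by Benjamini-Hochberg over 2 tests). Minus the share of all genes each ZFP called, the members' share was 9.97 ± 14.5 percentage points for the 6 and 11.5 ± 15.2 for the 30, a difference of -1.50 (exact permutation test, p = 0.825, adjusted p = 0.825). Neither difference exceeded the spread between ZFPs. Their direction turned when the peak had to overlap the gene, to 0.10 genes and 2.51 percentage points, and that of the second when the libraries labelled U2AF1 were left out, to 0.656 percentage points, or those labelled ZMAT5, to 0.998. Within the 6, SNRPC called RNU2-2, RNU4-2 and RNU12, WBP4 called RNU2-2, RNU4-1 and RNU4-2, and RNF113A called RNU4ATAC. All 6 gene-ZFP pairs of SNRPC and WBP4 had the summit inside, with folds of 5.68 to 11.2. RBM5 and the libraries labelled ZMAT5 and U2AF1 called none.

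Other short non-coding RNA genes with promoters of this kind were counted by the same rule. Of 15 such genes, 10 were called, in 205 of 1080 gene-list pairs, a larger share than the 61 of 720 at the members. The summit lay inside in 184 of their 206 peaks. The U1 genes RNU1-1, RNU1-2, RNU1-3 and RNU1-4 were called in 20, 30, 18 and 28 lists, near or above the 21 of RNU2-2. RN7SK, whose RNA holds the elongation factor P-TEFb inactive, was called in 43 lists, all with the summit inside. RMRP and RPPH1, the RNA subunits of RNase MRP and RNase P, were called in 29 lists each. These 3 genes are transcribed by RNA polymerase III, and 96 of their 102 peaks had the summit inside, beside 0 of the 8 peaks at RNU6-1 and RNU6ATAC. RNU6-2, RNU6-7 and RNU7-1 were called in 3, 2 and 3 lists with no summit inside, and RNU5D-1, RNU5E-1, RNU5F-1, RNU6-8 and RNU6-9 in none.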

How the data were processed

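Cut&Run peak lists of 36 ZFPs with 2 replicates each were used, and each list was assigned to its ZFP and replicate from the labels; the 2 mock IP samples were not analysed here. Per the labels and methods, the authors trimmed reads with Trimmomatic 0.36, aligned them to hg38 with Bowtie2 2.3.5.1 in very sensitive local mode, removed PCR duplicates with Picard 0.1.8 and called narrow peaks in each library with MACS2 2.2.7.1 at an FDR threshold of 0.05, using as control the V5 mock IP sample that shared its batch. The deposited fold of a peak is a ratio, the library's signal over that control at the summit. The deposited −log10 p and −log10 q values and the score are also those of the peak caller. The labels give an approximate sequencing depth for all libraries. The mapping quality limit, the read total and the batch of each single library were not found in those sources. The number of peaks in a list was used as list length and does not measure depth. How local alignment and duplicate removal act on short or repeated genes was not tested.

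Genes and strands were taken from GENCODE 44, and all 92 contigs with peaks fitted the hg38 reference. A gene was called in a list when a peak overlapped it or lay within 500 bp, and the same rule was run over all 62700 genes. Summit and edge distances were measured along the gene strand, and an edge within 15 bp of a gene end was counted as close, a limit set after the values were seen. Structural RNA genes are those of the types rRNA, mitochondrial rRNA, snRNA, snoRNA, scaRNA, ribozyme and misc_RNA. Stretches of 50 bases were matched exactly to both strands of the autosomes, X and Y of hg38, and other contigs were not searched. The spliceosomal ZFPs were compared with the others by an exact permutation test with the ZFP as unit. P-values were adjusted by Benjamini-Hochberg over the 2 tests. Values were computed with python 3.11.15, pandas 2.3.3, numpy 2.4.6, scipy 1.17.1 and samtools 1.23.1, after the overlap and permutation code had been tested on simulated data.

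The members, gene lists and tests were chosen with earlier results of these data known. All 10 members were named, with the values of every list for members called in 10 lists or fewer and, for RNU2-2, the ZFPs called in both replicates with the range and median; genes with a start site in a member's window, the 3 genes over 10 kb away with the lists most like those of RNU2-2 and the 6 spliceosomal ZFPs were named too. Alternatives varied the distance, the q threshold, the replicates, ZFPs, members and background used, and the replicate block.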

Additional observations from a re-analysis of the deposited data

How the results depend on the processing

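The number of called gene-list pairs, 61, became 40 with overlap required, 37 with −log10 q of at least 5, 40 without RNU2-2 and 22 without members with a protein-coding start site in the window, and 26 to 35 with 1 replicate left out. The excess over all genes, 6.58 percentage points, became 3.98 with overlap required, 4.02 within 100 bp, 7.72 within 1000 bp, 5.40 by the summit, 4.73 with −log10 q of at least 5, 4.28 without RNU2-2, 3.2 without the members with a coding start site and 8.09 against other snRNA genes. Pairs called in both replicates, 9, became 14 within 1000 bp, 5 with −log10 q of at least 5, 4 without RNU2-2 and 0 without the members with a coding start site, and cannot be counted with 1 replicate left out. Peaks with the summit inside, 39, became 20 and 11 under the last 2 settings and 16 to 23 with 1 replicate left out. With only the ZFPs that have a Cut&Run value in the authors' summary, 51 gene-list pairs were called and 30 peaks had the summit inside. In that setting 8 pairs of a gene and a ZFP were called in both replicates. Falls under settings with fewer genes, lists or peaks follow from their construction.

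Counts of lists per gene also moved: within 100 bp RNU6ATAC fell from 7 to 0, RNU4ATAC from 4 to 1 and RNU11 from 4 to 2, and with −log10 q of at least 5 RNU12 fell from 10 to 6.

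The difference in genes between spliceosomal and other ZFPs, -0.33, turned to 0.10 with overlap required, 0.067 within 100 bp, 0.13 with −log10 q of at least 5, 0.071 with MBNL1 and ZMAT3 added, and 0.32 with MBNL1, TRIM55, U2AF1 and ZMAT5 left out, the last chosen after seeing the data. The difference in share, -1.50, turned to 2.51, 2.3, 1.89, 2.69 and 5.13 in those settings, to 0.770 by the summit, to 0.656 without the libraries labelled U2AF1 and to 0.998 without ZMAT5, and ran from -2.0 to 0.033 with 1 replicate left out. With the replicate number as a block the differences were -0.22 genes and -0.983 percentage points (exact permutation test, p = 0.707 and 0.82). With only the ZFPs that have a Cut&Run value in the authors' summary, the differences were -0.5 genes and -2.58 percentage points. Over all alternatives the p-values of the exact permutation tests ran from 0.532 to 1, so no call was gained. The cause was not tested. List length limits what an uncalled gene shows.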
